A study of Mus musculus with 6 samples.

Results

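The genes described here encode the cell-cell adhesion complexes of epithelia. They are 10 genes chosen by symbol from the 48587 rows of a table of RNA-seq counts: 4 genes of the adherens junction and of EPCAM adhesion (Cdh1, Epcam, Ctnna1 and Ctnnd1) and 6 genes of the desmosome (Jup, Dsp, Dsg2, Dsc2, Pkp2 and Pkp3). They were measured in 4T1, a line of mouse mammary gland cancer cells, to ask how overexpression of METTL7A1, a putative methyltransferase, affects its transcripts. Total RNA was sequenced from 3 libraries of cells stably transfected with full-length Mettl7a1 cDNA in pBICEP-CMV-2, a vector with the CMV promoter, and selected in 350 μg/ml G418 (METTL7A1), and from 3 libraries of mock cells. The labels print the same transfection and selection text for mock cells. In the study's immunoblots, 4T1 mock cells carried the empty vector and the METTL7A1 made by the other line had a FLAG tag. The sources do not say whether either line is 1 clone or a pool of clones. The label calls each set of 3 biological triplicates, so p-values measure the spread between cultures of 1 transfected line and 1 mock line.

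Adherens junctions and desmosomes hold neighbouring epithelial cells together. In an adherens junction the classical cadherin E-cadherin binds its like on the next cell and is anchored to actin through catenins, whereas in a desmosome the cadherins desmoglein and desmocollin are anchored to keratin filaments through plakoglobin, plakophilins and desmoplakin. Loss of E-cadherin is a textbook mark of the epithelial-mesenchymal transition, and desmosomal proteins are abundant in mammary epithelium as in skin and heart.

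Library totals ranged from 18386780 to 28459338 counts. Mettl7a1 was at 342.5, 384.5 and 421.6 cpm (read counts scaled to a common library size with TMM factors) in METTL7A1 libraries 1 to 3 and at 1.64, 1.24 and 1.17 cpm in mock libraries 1 to 3. The counts do not separate transfected from endogenous transcripts. Values below are listed in the order of libraries 1 to 3 of each group.

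All 10 junction genes passed the abundance filter (at least 1 cpm in at least 3 libraries) in both groups. Jup, Ctnnd1, Dsc2, Dsg2 and Ctnna1 were higher in METTL7A1 cells by 1.20- to 1.46-fold, Dsp was lower at 0.797 of its mock level, and Cdh1, Epcam, Pkp2 and Pkp3 did not pass the test. Called genes are those with an adjusted p under 0.05 in edgeR's quasi-likelihood test. Thus 6 of 10 were called, beside 42.1% of the 13166 genes tested; 5 were called higher, beside 21.1% of all genes, and 1 lower, beside 21% of all genes. The libraries of the 2 groups did not overlap for 7 of the 10, beside 51.6% of all genes. None of the 10 reached the study's thresholds (adjusted p under 0.01 with an absolute log2 fold change over 1.5). The median log2 fold change of the 10 was 0.12, beside -0.03 for all genes tested, and the median of its absolute size was 0.30, beside 0.25 for all genes. In bulk RNA, fewer cells with a transcript and less of it per cell cannot be told apart.

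**Figure D1:**
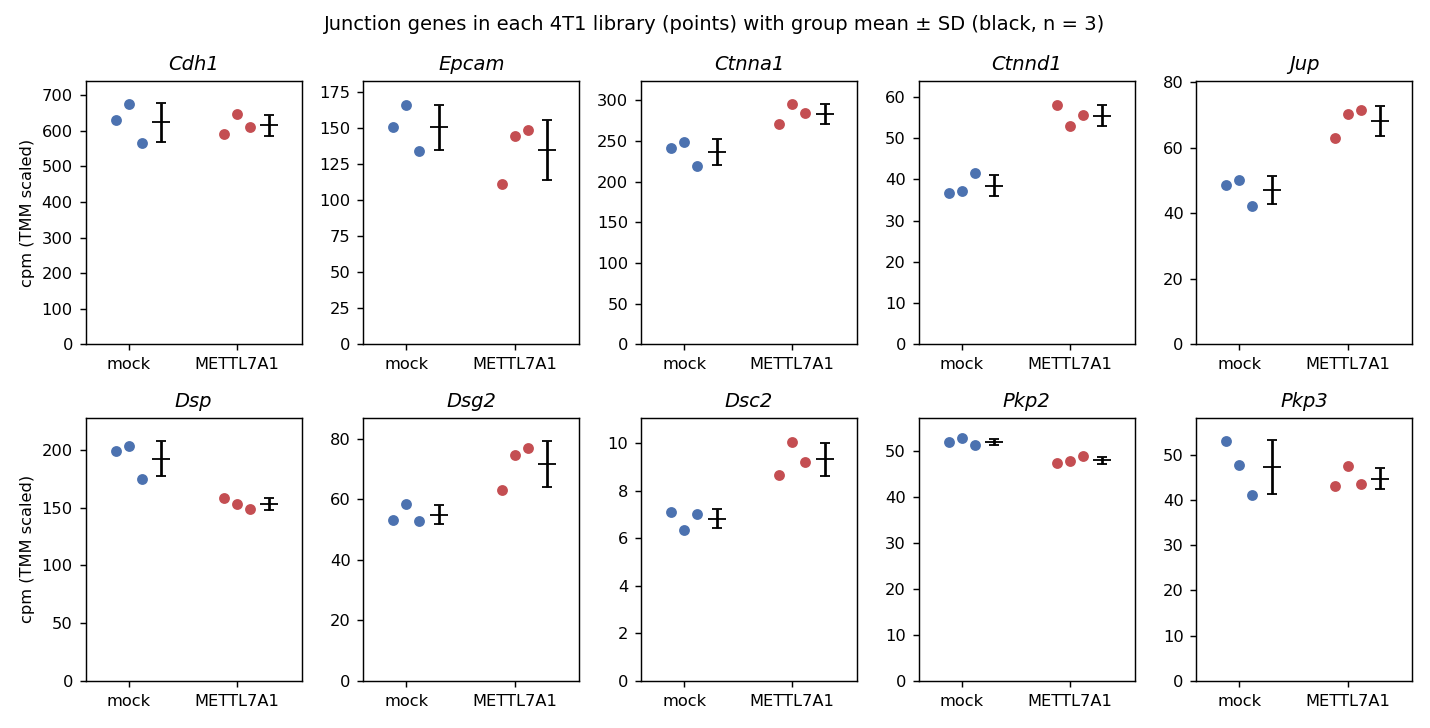
Each panel plots 1 junction gene, with cpm on TMM-scaled library sizes on an axis that starts at 0, blue points for the mock libraries, red points for the METTL7A1 libraries and black bars for the mean ± SD (n = 3). The groups are apart for Ctnna1, Ctnnd1, Jup, Dsg2 and Dsc2 (METTL7A1 higher) and for Dsp and Pkp2 (mock higher), and they overlap for Cdh1, Epcam and Pkp3.

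Levels of different genes were compared per length, as cpm per kb of exon. In mock cells E-cadherin led with 141 ± 12.6 cpm per kb (SD, n = 3), at the 97.6th percentile of the genes tested. Epcam (73.8 ± 7.82) and Ctnna1 (63.9 ± 4.22) followed and overlapped with each other, and Dsp stood apart below them at 20.1 ± 1.62 cpm per kb. Pkp3 (15.4 ± 1.94) and Jup (14.6 ± 1.33) overlapped, Pkp2 stood apart at 9.69 ± 0.13, and Dsg2 (6.65 ± 0.39) and Ctnnd1 (5.98 ± 0.41) overlapped. Dsc2 was the lowest at 1.47 ± 0.09 cpm per kb, the 15.8th percentile. The level of the actin-linked E-cadherin transcript was thus above every desmosomal transcript in every library. In METTL7A1 cells Ctnna1 (76.6 ± 3.34) stood above Epcam (66.2 ± 10.2), whose highest library (73.1) lay just under the lowest of Ctnna1 (73.2). Jup (21.2 ± 1.44) stood above both Dsp (16.0 ± 0.53) and Pkp3 (14.6 ± 0.77) with no overlap, whereas Pkp2 (8.94 ± 0.14), Dsg2 (8.66 ± 0.91) and Ctnnd1 (8.62 ± 0.40) overlapped.

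**Figure D2:**
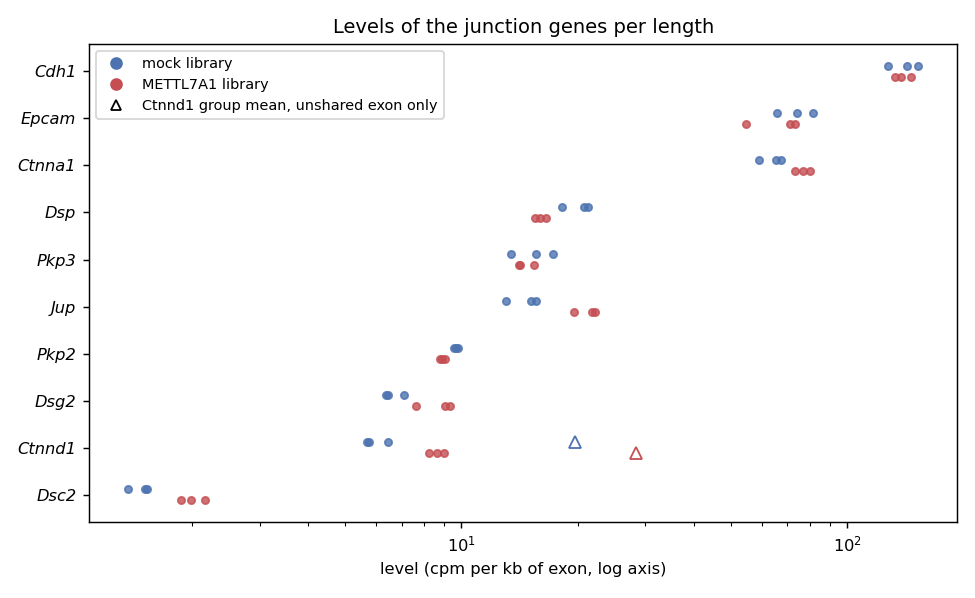
Each point is 1 library (blue mock, red METTL7A1) and the horizontal log axis gives cpm per kb of exon, with genes ordered by their mock mean. E-cadherin lies at the top in both groups and Dsc2 at the bottom, and open triangles mark the group means of Ctnnd1, 19.7 for mock and 28.4 for METTL7A1, over the exon bases that it shares with no other gene.

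The position of Ctnnd1 in that order depends on the length used. It shares 4482 of its 6433 exon bases with Gm28635, a read-through gene on the same strand. Gm28635 had 0 counts in every library, so no read in the shared bases was counted for Gm28635. The methods do not state whether such reads were dropped or counted for Ctnnd1. If they were dropped, the level of Ctnnd1 over its full exon length is too low, and its fold change describes the unshared bases alone. Over the 1951 unshared bases, of which 1368 lie beyond the 3′ end of Gm28635, Ctnnd1 had 19.7 ± 1.35 cpm per kb in mock cells and 28.4 ± 1.31 in METTL7A1 cells, and it moved from rank 9 to rank 5 of 10 in mock cells. The other 9 genes share no exon base with a gene on their own strand. On the opposite strand, 465 exon bases of Dsp face Gm10129 and 330 of Dsg2 face Gm16090, whose highest counts per library were 3 and 9.

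Neither Cdh1 nor Epcam passed the test. Cdh1, which encodes E-cadherin (mm10 chromosome 8, 106603351 to 106670246, plus strand), was at 589.9, 646 and 609.5 cpm in METTL7A1 libraries and at 631, 676 and 565 cpm in mock libraries. The ranges overlapped, and the METTL7A1 values lay within those of mock. The log2 fold change was -0.02 (SE 0.09, adjusted p = 0.879 in edgeR's quasi-likelihood test), with a 95% interval of 0.86- to 1.13-fold. Epcam, which encodes a homophilic adhesion molecule of epithelial cells (chromosome 17, 87635979 to 87651106, plus strand), was at 111, 145 and 149 cpm in METTL7A1 and at 151, 166 and 134 cpm in mock libraries. METTL7A1 replicate 1 was the lowest of the 6, and the other 2 METTL7A1 libraries fell between mock libraries. The log2 fold change of Epcam was -0.16 (SE 0.11, edgeR adjusted p = 0.3), with an interval of 0.755- to 1.07-fold.

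The 3 catenins among the members were all higher in METTL7A1 cells. Ctnnd1, which encodes p120-catenin, a stabiliser of cadherins at the membrane (chromosome 2, 84600071 to 84650765, minus strand), was at 58.0, 52.9 and 55.5 cpm in METTL7A1 libraries and at 36.7, 37.2 and 41.5 cpm in mock libraries. Every METTL7A1 library was above every mock library (log2 fold change 0.53, SE 0.08, edgeR adjusted p = 0.000275). Jup, which encodes plakoglobin, the catenin that desmosomes and adherens junctions share (chromosome 11, 100370619 to 100397749, minus strand), was at 63.0, 70.4 and 71.5 cpm in METTL7A1 and at 48.7, 50.2 and 42.1 cpm in mock libraries. The groups were again apart, and the difference was the largest of the 10 (log2 fold change 0.54, SE 0.09, edgeR adjusted p = 0.000456). Ctnna1, which encodes αE-catenin, the actin-binding catenin (chromosome 18, 35118888 to 35254773, plus strand), was at 271, 295 and 284 cpm in METTL7A1 and at 242, 248 and 219 cpm in mock libraries. Its groups were apart by a smaller step (log2 fold change 0.26, SE 0.08, edgeR adjusted p = 0.0181). Without METTL7A1 replicate 2 the Ctnna1 difference was 0.23 and no longer passed the test (edgeR adjusted p = 0.0861).

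Among the desmosomal linkers, desmoplakin fell and the plakophilins gave no call. Dsp, which encodes desmoplakin, the plakin that ties the plaque to keratin filaments (chromosome 13, 38151328 to 38198577, plus strand), was at 159, 153 and 148 cpm in METTL7A1 and at 199, 203 and 175 cpm in mock libraries. Each METTL7A1 library was below each mock library, and the log2 fold change was -0.33 (SE 0.08, edgeR adjusted p = 0.00591). Pkp2, the plakophilin of simple epithelia and heart (chromosome 16, 16213318 to 16272712, plus strand), was at 47.3, 47.7 and 48.7 cpm in METTL7A1 and at 51.9, 52.6 and 51.2 cpm in mock libraries. Its groups did not overlap, yet the difference was small and did not pass the test (log2 fold change -0.12, SE 0.06, edgeR adjusted p = 0.171). Pkp3, a plakophilin found in most epithelia (chromosome 7, 141078218 to 141090510, plus strand), was at 43.2, 47.4 and 43.4 cpm in METTL7A1 and at 53.0, 47.8 and 41.1 cpm in mock libraries. Its mock libraries spanned the METTL7A1 values, and the log2 fold change was -0.08 (SE 0.09, edgeR adjusted p = 0.532), with an interval of 0.821- to 1.09-fold.

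RefSeq promoter windows (GRCm38.p6) were at hand for 4 of the 10 genes, Jup, Ctnnd1, Dsp and Epcam, with 5 annotated starts. The 250 bases before a start are shown for 1 start of each, because Jup and Ctnnd1 had the largest rises, Dsp was the member that fell and Epcam did not pass the test. For Ctnnd1 the start nearest to the one in the counts table was taken. Capitals mark the E-box CAGGTG, bound by SNAI and ZEB repressors, the GC box GGGCGG and the CCAAT box CCAAT, each on either strand, and no marked matches overlap. The windows are chr11:100397791-100398040 (minus strand) for Jup, chr2:84650741-84650990 (minus strand) for Ctnnd1, chr13:38151044-38151293 (plus strand) for Dsp and chr17:87635729-87635978 (plus strand) for Epcam.
Jup: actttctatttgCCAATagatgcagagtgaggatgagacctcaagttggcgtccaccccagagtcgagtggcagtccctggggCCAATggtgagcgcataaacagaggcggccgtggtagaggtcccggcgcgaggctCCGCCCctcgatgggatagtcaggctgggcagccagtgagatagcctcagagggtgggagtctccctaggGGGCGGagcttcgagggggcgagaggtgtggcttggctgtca
Ctnnd1: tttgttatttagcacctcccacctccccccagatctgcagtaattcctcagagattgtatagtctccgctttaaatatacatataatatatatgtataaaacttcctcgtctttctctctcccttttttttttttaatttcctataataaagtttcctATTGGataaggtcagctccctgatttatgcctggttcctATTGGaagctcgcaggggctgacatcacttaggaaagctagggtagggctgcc
Dsp: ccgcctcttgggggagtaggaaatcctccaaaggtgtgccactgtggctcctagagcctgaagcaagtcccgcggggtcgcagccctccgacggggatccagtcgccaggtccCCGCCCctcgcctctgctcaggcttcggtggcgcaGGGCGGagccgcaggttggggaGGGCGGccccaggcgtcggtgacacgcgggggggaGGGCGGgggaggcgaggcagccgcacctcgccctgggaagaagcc
Epcam: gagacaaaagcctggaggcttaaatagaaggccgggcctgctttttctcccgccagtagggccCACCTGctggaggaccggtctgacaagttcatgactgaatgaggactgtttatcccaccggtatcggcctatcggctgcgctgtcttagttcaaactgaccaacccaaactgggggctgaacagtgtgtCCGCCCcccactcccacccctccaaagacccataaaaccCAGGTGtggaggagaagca
The E-box was found 2 times before the Epcam start, at 187 and 19 bases upstream counted to the first base of the match, and was absent from the windows of the other 3. Of 32851 promoter windows of the same length, 17.2% held it. The GC box was found 4 times for Dsp, 2 times for Jup and 1 time for Epcam, and 32.7% of windows held it. The CCAAT box was found 2 times each for Jup and Ctnnd1 and in neither of the others, against 33.8% of windows. G and C made up 62.0% of the window of Jup, 40% of that of Ctnnd1, 72.4% of that of Dsp and 56.4% of that of Epcam, beside a median of 52.4% over all windows. The other start of Ctnnd1, outside the gene as the counts table gives it, held 2 CCAAT boxes and no E-box or GC box. The AP-1 site TGANTCA (6.75% of windows) and the GRHL site AACNGGTT (1.79%) were in none of the 5 windows, and the TATA box TATAAA (12.4%) was found 1 time, 156 bases before the printed Ctnnd1 start, where it is not capitalised. These matches are descriptions of letters in the windows, and binding was not measured.

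The desmosomal cadherins expressed in these cells were both higher in METTL7A1 cells. Dsg2, which encodes desmoglein 2, the desmoglein of simple epithelia (20558074 to 20604521, plus strand of chromosome 18), was at 63.0, 74.8 and 77.1 cpm in METTL7A1 and at 53.3, 58.6 and 52.9 cpm in mock libraries. The groups were apart, with METTL7A1 replicate 1 the nearest to mock, and the log2 fold change was 0.38 (SE 0.09, edgeR adjusted p = 0.00454). Dsc2, which encodes its partner desmocollin 2 (20030633 to 20059554, minus strand of the same chromosome), was at 8.68, 10.1 and 9.21 cpm in METTL7A1 and at 7.11, 6.36 and 7.004 cpm in mock libraries. It had 130 to 297 counts per library, the fewest of the 10 genes. Its groups were apart (log2 fold change 0.45, SE 0.12, edgeR adjusted p = 0.0114), but the call was lost without METTL7A1 replicate 2 (0.39, edgeR adjusted p = 0.0827).

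Ctnna1, Dsg2 and Dsc2 lie on chromosome 18, where the genes around them were higher too. Of the 40 nearest neighbours with an average log2 cpm over 2, 33 had a log2 fold change over 0 around Ctnna1 (median 0.34, 25 of them called higher). Around each of Dsg2 and Dsc2, which share neighbours, it was 37 of 40 (median 0.34, 31 called higher). When the neighbour median was subtracted as an offset in the edgeR fit, the log2 differences of Ctnna1 (-0.07, adjusted p = 0.52), Dsg2 (0.04, adjusted p = 0.748) and Dsc2 (0.11, adjusted p = 0.523) no longer passed the test. A difference of these 3 genes from their surroundings was thus not detectable. Jup lay 0.64 above its neighbours (adjusted p = 0.000206 with the offset) and Ctnnd1 lay 0.38 above (adjusted p = 0.0029), whereas Dsp lay 0.26 below (log2 difference -0.26, adjusted p = 0.0263).

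The same offset brought out 2 genes that had not passed the test. Around Cdh1, 33 of 40 neighbours had a log2 fold change below 0, with a median of -0.29, and E-cadherin itself lay 0.27 above that median (edgeR with the offset, adjusted p = 0.0435). Around Pkp2, 33 of 40 neighbours had a log2 fold change over 0, with a median of 0.22, and Pkp2 lay below it (log2 difference -0.33, adjusted p = 0.00243). With the offset 5 of the 10 genes were called, beside 31.5% of all genes in that fit. Of these, 3 lay above their surroundings, beside 18.1% of all genes called above, and 2 below, beside 13.4% called below, and 3 of these (Jup, Ctnnd1 and Dsp) were also called without it. Epcam (-0.10 from its neighbours) and Pkp3 (0.02) passed neither test. The part of a shift of chromosome regions in these values was not tested beyond this offset, which takes the neighbour median as known without error.

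**Figure D3:**
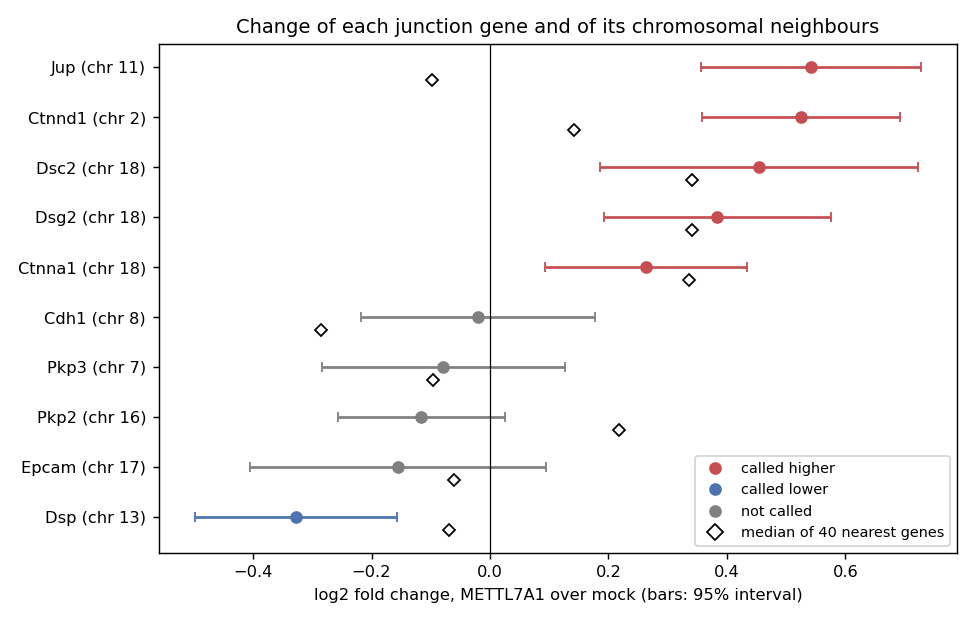
Filled points give the log2 fold change of METTL7A1 over mock for each junction gene with its 95% interval (red called higher, blue called lower, grey not called), and open diamonds give the median of the 40 nearest genes on its chromosome. The diamonds sit inside the intervals of the 3 chromosome 18 genes and outside those of Jup, Ctnnd1, Dsp, Pkp2 and Cdh1.

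Ratios of transcripts within a library, which need no scaling between libraries, were compared for 8 pairs of partners, as counts per kb of one over the other. With 3 libraries against 3, the smallest p that an exact two-sided permutation test can give is 0.1, so no pair could pass 0.05. The p120-catenin to E-cadherin ratio was 0.0677, 0.0564 and 0.0627 in METTL7A1 and 0.0401, 0.0379 and 0.0506 in mock libraries, a 1.46-fold difference with no overlap (exact permutation p = 0.1, 0.16 adjusted over 8 pairs). It uses the full exon length of Ctnnd1. Another length would scale the ratio of all 6 libraries alike and leave the fold as it is. If reads in the bases shared with Gm28635 were dropped, these ratios are too low. The fold then describes the unshared bases, most of which lie beyond the 3′ end of Gm28635. The αE-catenin to E-cadherin ratio was 0.552 in METTL7A1 and 0.454 in mock cells, 1.22-fold, again with no overlap and the same p. β-catenin over E-cadherin differed by 1.07-fold, also without overlap and with the same p, and Epcam over Cdh1 overlapped (0.904-fold, exact permutation p = 0.3). Each of the 3 catenin to E-cadherin ratios was above the mock range in every METTL7A1 library. They share E-cadherin as denominator, so they are not 3 separate results. The share of other gene pairs without overlap was not computed, and for single genes it was 51.6% of all genes tested. With the neighbour offset, the difference of the log2 fold changes against E-cadherin was -0.34 for αE-catenin and -0.04 for β-catenin, the opposite direction. For p120-catenin it was 0.12, smaller but in the same direction. The offset subtracts the neighbour medians by construction, and the part of regional shifts in these ratios was not tested.

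Within the desmosome, the ratio that differed most was that of the linkers of the plaque. Desmoplakin over plakoglobin was 1.38, 1.37 and 1.40 in mock libraries and 0.848, 0.733 and 0.699 in METTL7A1 libraries. The mean ratio thus went from 1.38 to 0.757, a 0.549-fold difference and the largest of the 8 pairs (exact permutation p = 0.1, 0.16 adjusted). This pair sets the only member called lower over the member with the largest rise, so its size follows from differences already given. Plakoglobin over β-catenin, its close relative, was 0.106 in METTL7A1 and 0.0772 in mock cells, 1.37-fold, with no overlap and the same p. The ratio of desmoglein 2 to desmocollin 2 (4.30 in METTL7A1 and 4.51 in mock cells, exact permutation p = 0.5) and that of Pkp3 to Pkp2 (1.63 and 1.58, exact permutation p = 0.9) overlapped between groups.

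**Figure D4:**
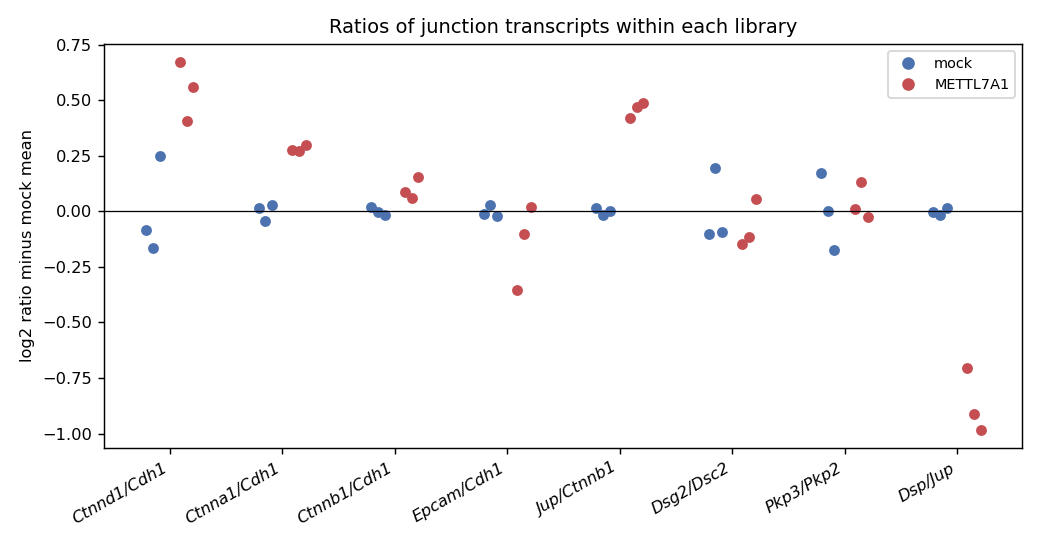
For each of 8 pairs of junction genes the vertical axis gives the log2 ratio in each library (counts per kb) minus the mock mean of that pair, with blue points for mock and red for METTL7A1. Groups are apart for 5 pairs, a count without a share over other gene pairs to set beside it. Desmoplakin over plakoglobin shows the largest step, -0.87 on the log2 scale.

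Beyond these 10 genes, 20 of 24 other adherens junction genes were tested and 12 were called, 6 higher and 6 lower, beside 42.1% of all genes called, 21.1% higher and 21% lower. The nectins, which are cadherin-independent adhesion molecules linked to actin by afadin, went different ways. Nectin4 was at 2.75, 2.51 and 2.92 cpm in METTL7A1 and at 0.711, 0.578 and 0.644 cpm in mock libraries (log2 fold change 2.08, SE 0.23, edgeR adjusted p = 4.34e-05) and passed the study's thresholds. Since every mock library was under 1 cpm, it passed the abundance filter through the METTL7A1 libraries alone, so it could be tested only because it was higher there, and it was also called with no abundance filter. Nectin2 was higher (log2 fold change 0.65), Nectin3 was lower (-0.57) and Nectin1 did not pass the test (0.01). Nectin3 had 57.5 ± 1.82 cpm in mock cells and 38.9 ± 3.38 cpm with METTL7A1 (SD, n = 3).

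The remaining called adherens junction genes with the smallest p were linkers and adaptors. Arvcf, a relative of p120-catenin, was at 31.7, 34.1 and 29.9 cpm in METTL7A1 and at 16.7, 14.7 and 12.5 cpm in mock libraries, with no overlap (log2 fold change 1.13, SE 0.11, edgeR adjusted p = 1.71e-05). Lmo7, a binding partner of afadin and actinin, was higher (0.56), and Shroom3, which drives apical constriction, was lower (-0.56). Ajuba, a LIM adaptor that binds αE-catenin, was lower with METTL7A1, at 112 ± 5.21 cpm against 185 ± 11.1 cpm (SD, n = 3, log2 fold change -0.72). Vcl, which encodes vinculin, the tension-dependent partner of αE-catenin, was at 206, 229.8 and 252 cpm in METTL7A1 and at 329, 353 and 322 cpm in mock libraries (log2 fold change -0.54, SE 0.09, edgeR adjusted p = 0.000537). Vinculin thus fell where Ctnna1 rose, but both calls were lost with the neighbour offset. There Vcl was at -0.15 (edgeR adjusted p = 0.223) and Ctnna1 at -0.07 (edgeR adjusted p = 0.52). Ctnnb1, which encodes β-catenin, did not pass the test (log2 fold change 0.08, SE 0.09, edgeR adjusted p = 0.528). Cdh3, another cadherin gene, was lower at a low level, 1.89 ± 0.04 cpm in METTL7A1 and 3.94 ± 0.44 cpm in mock cells. Its log2 fold change was -1.05 (edgeR adjusted p = 0.000973), and the call was kept with the neighbour offset (-0.77, edgeR adjusted p = 0.00879). Of Vcl exon bases, 2087 face Ap3m1 on the opposite strand, a gene with up to 1742 counts per library, and the methods do not state whether strand was used in counting.

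The other 4 adherens junction genes were under the filter. Cdh2, which encodes N-cadherin, had 0 counts in all 6 libraries, which allows a level of up to 0.102 to 0.164 cpm per library (3 counts, counting error only). Ctnna2, Ctnna3 and Cdh5 had at most 15 counts in any library.

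Of 13 other desmosome and plakin genes, 4 were tested and 3 were called, beside 42.1% of all genes. Ppl, which encodes periplakin, a cornified envelope plakin, was higher at 84.8, 97.4 and 92.7 cpm in METTL7A1 against 63.9, 65.4 and 60.7 cpm in mock libraries (log2 fold change 0.54, SE 0.07, edgeR adjusted p = 0.000193). Its groups were apart, in the opposite direction to desmoplakin. Pkp1, the plakophilin of stratified epithelia, was lower at a low level, 2.32 ± 0.05 cpm in METTL7A1 and 3.88 ± 0.29 cpm in mock cells (SD, n = 3, log2 fold change -0.74). Perp, a desmosomal tetraspan protein, was lower at 162 ± 28.9 against 211 ± 18.7 cpm (log2 fold change -0.38, edgeR adjusted p = 0.0257), a call that was lost without mock replicate 1, without mock replicate 2 or with the neighbour offset. Evpl, which encodes envoplakin, had a log2 fold change of 0.34 and did not pass the test. The desmosomal cadherins of stratified epithelia were at or near 0: Dsc3, Dsg1a, Dsg1b and Dsg4 had 0 counts in every library, Dsc1, Dsg1c and Dsg3 had at most 1 count, and Cdsn and Kazn were under the filter as well. Dsg2 and Dsc2 were thus the desmoglein and the desmocollin detected above the filter in 4T1.

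All 12 genes of junction turnover were tested and 9 were called, 3 higher and 6 lower, beside 42.1% of all genes called, 21.1% higher and 21% lower. Among the sheddases, Adam10, which cleaves E-cadherin, was at 120, 133 and 145 cpm in METTL7A1 and at 92.2, 97.4 and 101 cpm in mock libraries (log2 fold change 0.45, SE 0.08, edgeR adjusted p = 0.00105), and Adam17 was lower (-0.22), a call that was lost without any 1 METTL7A1 library, without mock replicate 1 or 2 and with no abundance filter. Of the genes for internalisation, Numb, an endocytic adaptor, was lower (-0.57), as was Arf6, a GTPase of cadherin recycling (-0.61, 172 ± 11.4 against 262 ± 28.9 cpm), and Cbll1, which encodes the E3 ligase Hakai that ubiquitinates E-cadherin, was lower too (-0.40, not called without METTL7A1 replicate 2 or 3 or mock replicate 3). Of the other protease and inhibitor genes in the list, Prss8, which encodes prostasin, was higher at 12.4 ± 1.54 against 6.63 ± 0.90 cpm (log2 fold change 0.91). Spint1, a Kunitz inhibitor of matriptase, was higher too (0.37). St14, which encodes matriptase itself, Spint2 and Rab11a did not pass the test. The direction therefore differed within the list. The count was 5 without METTL7A1 replicate 2 and 4 with the neighbour offset, where Numb, Arf6, Cbll1 and Spint1 were among those that lost their calls. Adam17, Cbll1, Numb and Arf6 all lie on chromosome 12, and Adam17 turned from -0.22 to 0.35 with the offset and was called in the other direction (edgeR adjusted p = 0.00404).

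Of 12 listed regulators of E-cadherin transcription and of epithelial identity, 10 were tested and 3 were called, beside 42.1% of all genes. Elf3, an epithelial ETS factor, was higher (log2 fold change 0.48, edgeR adjusted p = 0.00188), and Twist1, a repressor of E-cadherin, was lower (-0.83, adjusted p = 0.000255), as was Esrp1, an epithelial splicing factor (-0.26, adjusted p = 0.018). The call of Esrp1 was lost without METTL7A1 replicate 2, without mock replicate 2 and with no abundance filter, and with the neighbour offset those of Esrp1 (-0.03, adjusted p = 0.81) and Twist1 (-0.32, adjusted p = 0.0638) were lost. The other 7 did not pass the test, and Snai2 and Zeb1 were under the filter. Among 4 keratins of simple epithelia, to whose filaments desmosomes attach, Krt7 was higher (log2 fold change 0.50, adjusted p = 0.00126) and the other 3 did not pass the test, nor did Krt7 with the offset (0.18, adjusted p = 0.166).

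Markers were used to check the label of mammary carcinoma cells. All 9 epithelial markers, Cdh1 and Epcam among them, were above the filter. Their summed level was 2397 to 2948 cpm per library in METTL7A1 and 1995 to 2420 in mock cells. Of these 9, 4 were called, beside 42.1% of all genes, and all 4 were higher, beside 21.1% of all genes called higher. Krt7 was among the 4 and lost its call with the neighbour offset. Of 4 mesenchymal markers, 2 were above the filter, Vim (252 ± 27.6 against 564 ± 59.5 cpm, lower in METTL7A1) and Fn1, and Cdh2 was at 0, with a summed level of 2492 to 2997 cpm in METTL7A1 and 2686 to 3138 cpm in mock libraries. Of 5 fibroblast markers 1 passed, Pdgfra (24.5 ± 1.44 against 17.7 ± 1.32 cpm), of 3 endothelial markers 0, and of 3 leukocyte markers 1, Cd68, which was at 12.8 ± 1.32 cpm in METTL7A1 and 5.43 ± 0.76 cpm in mock cells. Summed levels were 23.8 to 26.6 cpm and 17.3 to 19.7 for the fibroblast list, 0.754 to 0.892 and 0.413 to 0.644 for the endothelial list and 11.5 to 14.1 and 4.87 to 6.28 for the leukocyte list, in METTL7A1 and mock libraries respectively. Pdgfra and Cd68 were both called higher in METTL7A1 cells, beside 21.1% of all genes. The other members of these lists (Col1a1, Col3a1, Dcn, Lum, Pecam1, Cdh5, Kdr, Ptprc and Cd3e) were under the filter. Col1a1 was the highest of them, at 1.20 cpm in 1 mock library. Of 4 keratinocyte and myoepithelial markers Krt14 passed, lower in METTL7A1 (9.79 ± 0.72 against 37.8 ± 1.16 cpm), Krt5 was at 0, and the summed level was 9.21 to 10.6 cpm against 37.2 to 39.1 cpm. The part of these shifts in the junction values was not tested.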

How the data were processed

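Total RNA of 4T1 cells was depleted of ribosomal RNA, made into stranded libraries and sequenced on an Illumina NovaSeq. Per the methods and the submitters' processing notes, the authors trimmed reads with BBDuk, aligned pairs to mm10 with STAR 2.5.3a and assigned them to Ensembl genes with featureCounts, and they deposited raw counts per gene, not normalized. Groups and replicate numbers came from the sample titles. Per the file headers, exon length in bases was also given, and it was used for levels per kb.

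The whole table was fitted in R 4.3.3 with edgeR 4.0.16 (TMM scaling, at least 1 cpm in at least 3 libraries, 13166 genes, glmQLFit and glmQLFTest, no covariate), after a test on simulated data. The Benjamini-Hochberg adjustment of p-values ran over the whole set of tested genes, SE is the log2 fold change over the square root of F, and cpm is given per library or as mean ± SD. Replicates differed by more than counting noise, with a chi-square per degree of freedom of 20.4 to 235, so each counted as 1 sample. Members and lists were chosen with earlier results of these data known. Text names all members and, per list, at most 8 called genes with the smallest p, and the genes under the filter. Nectin1, Cdh3, Evpl, St14, Spint2 and Rab11a were named after their values were seen. Afdn is listed in the table as Mllt4. Results of some list genes are counted but not reported here by name. Alternatives were RLE and upper quartile scaling, other filters, removal of the 20 most abundant genes, a replicate block, omission of each library, DESeq2 1.42.0, limma 3.58.1 (voom) and an offset of the median log2 fold change of 40 neighbours. Promoters were taken from RefSeq (GRCm38.p6). Gene coordinates are those of the table, counted from 1.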

Additional observations from a re-analysis of the deposited data

How the results depend on the processing

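Of the 10 junction genes, 6 were called under both other scalings, both other filters on low counts, without the 20 genes of highest abundance, by DESeq2 and by limma voom, the same genes each time, and 4 to 6 when 1 library was left out, the lowest count without METTL7A1 replicate 2, where Ctnna1 and Dsc2 lost their calls. With the neighbour offset 5 were called. Ctnnd1, Jup and Dsp kept their direction and call under all 15 alternatives. The log2 fold change of Cdh1 turned to 0.015 with no abundance filter and to 0.265 with the neighbour offset, and it ranged from -0.079 to 0.037 when 1 library was left out. Ctnna1 went to -0.073 and Pkp3 to 0.018 with the offset, and Pkp3 ranged from -0.162 to 0.024 when 1 library was left out. The junction turnover count was 4 with the offset, where Adam17 reversed to a called 0.345, and 5 to 8 when 1 library was left out. The log2 difference of the Dsg2 to Dsc2 ratio ranged from -0.132 to 0.028 and that of Pkp3 to Pkp2 from -0.048 to 0.126 when 1 library was left out. With the offset, an alternative for ratios chosen after seeing the data, the log2 difference turned to -0.338 for Ctnna1 to Cdh1 and -0.037 for Ctnnb1 to Cdh1, and went to 0.118 for Ctnnd1 to Cdh1, -0.361 for Epcam to Cdh1, 0.411 for Jup to Ctnnb1 and 0.352 for Pkp3 to Pkp2. The cause of these changes was not tested, except that the offset subtracts the neighbour median by construction. Nectin4 was not tested without any 1 METTL7A1 library, since fewer than 3 libraries then reached 1 cpm. Per length, Ctnnd1 moved from rank 9 to 5 over unshared exon bases, a length chosen after seeing the data. No scaling moved the median log2 fold change of all genes by more than 0.1.

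Replicate numbers did not pair the libraries, with correlations of same-numbered deviations of -0.15, 0.20 and -0.37. With the replicate block, 6 of the 10 genes were called and 4810 genes in all, against 5537 without it. The other adherens junction count was 11, the other desmosome count 3 and the junction turnover count 7 with the block, which ended the call of Adam17.

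Depth limited the genes near 0: a library with 0 counts allows up to 0.102 to 0.164 cpm.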
